A study of Mus musculus with 24 samples.

Results

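Mutyh and 9 other genes of mouse chromosome 4 were followed through nuclear RNA of the hippocampus. The genes were Mutyh, Toe1, Tesk2, Hpdl, Zswim5, Urod, Mmachc, Zfp69, 1700057H15Rik and Glis1, 10 of the 55254 genes in the count tables and of the 2801 genes of chromosome 4 that had a position. They were picked by symbol from the surroundings of Mutyh, with their levels in the knockout libraries already known. The differences between WT and the libraries labelled Mutyh-/- or DKO are therefore given as a description without a test. Tests are given for measures that the choice did not use, which were the difference between Ogg1-/- and WT and the difference between the cell types of WT.

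All mice were 6-month-old males on a C57BL/6N background, kept in standard housing. Hippocampal nuclei were stained for NeuN, a nuclear protein of neurons encoded by Rbfox3, and sorted by flow cytometry into a NeuN+ and a NeuN- fraction. Each fraction was sequenced in 3 replicates of WT, of Mutyh-/-, of Ogg1-/- and of the double knockout DKO, which came from a cross of both single knockout lines. WT carried no knockout label, Mutyh-/- and Ogg1-/- were labelled as lacking 1 glycosylase each, and DKO as lacking both. The design of either allele is not given in the sources used here. The methods describe nuclei pooled over animals of 1 genotype, with pool sizes that differ between passages, so p-values measure the spread between libraries, which may be partly technical. Total counts ranged from 56563586 to 96192142 per library in NeuN+ and from 56982273 to 92409869 in NeuN-.

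Mutyh encodes an adenine DNA glycosylase of base excision repair. When the oxidized base 8-oxoguanine (8-oxoG) stays in DNA, replication can place an adenine opposite to it, and Mutyh removes that adenine. Ogg1 encodes the glycosylase that removes 8-oxoG itself, and Nudt1 clears the oxidized nucleotide from the precursor pool. Neurons of the adult brain have a high oxidative metabolism and do not divide, and the study used these lines to ask whether both glycosylases affect gene regulation in the hippocampus.

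The neighbours of Mutyh have unrelated functions. Toe1 encodes an exonuclease that trims the 3′ ends of small nuclear RNAs, Tesk2 a kinase that phosphorylates the actin regulator cofilin, and Hpdl a mitochondrial protein related to 4-hydroxyphenylpyruvate dioxygenase. Zswim5 encodes a SWIM zinc finger protein, Urod an enzyme of heme synthesis, and Mmachc a protein that processes vitamin B12. Further away, Zfp69 encodes a KRAB zinc finger protein, Glis1 a Krüppel-like transcription factor, and 1700057H15Rik is annotated as a long intergenic non-coding RNA (lincRNA).

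Positions are those of GRCm38, from the GENCODE annotation by symbol. Mutyh lies on the plus strand of chromosome 4 from 116807723 to 116819440. Toe1 lies on the minus strand from 116794310 to 116807640, and the annotated start sites of both genes are 0.083 kb apart, facing away from each other. Tesk2 (plus strand, 116720948 to 116805956) starts 86.8 kb before Mutyh and Mmachc (minus strand, 116702279 to 116708406) starts 99.3 kb before it. On the other side, Hpdl (minus strand, 116819904 to 116821707) starts at 14.0 kb, Zswim5 (plus strand, 116877376 to 116989264) at 69.7 kb and Urod (minus strand, 116989965 to 116994413) at 186.7 kb. Zfp69 (minus strand, 120930137 to 120951699), 1700057H15Rik (minus strand, 124414416 to 124485959) and Glis1 (plus strand, 107434591 to 107635061) are distant, at 4.14, 7.68 and -9.37 Mb. The exons of Toe1 and Tesk2 share 1212 bases on opposite strands, 40.7% of Toe1 and 28.4% of Tesk2. The strand setting of the counting is not given in the sources used here, so reads of Toe1 and Tesk2 could have been taken for each other. Tesk2 also shares 405 exon bases with Ccdc163 on the same strand (9.48% of Tesk2) and Glis1 shares 66 with the microRNA gene Gm24804 (1.81%), whereas no exon of Mutyh overlapped another gene.

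Because Mutyh and Toe1 start next to each other, the DNA between their RefSeq start sites is shown, 174 bases at chr4:116807560-116807733 of GRCm38.p6 on the strand of Mutyh. For comparison, the 250 bases before the RefSeq start of the 3 distant members are shown on their own strand, at chr4:124485960-124486209 for 1700057H15Rik, chr4:120951702-120951951 for Zfp69 (its second listed start) and chr4:107434469-107434718 for Glis1. Capitals mark GC boxes (the letters GGGCGG) and the motif CCAAT, on either strand.
Mutyh and Toe1, shared stretch: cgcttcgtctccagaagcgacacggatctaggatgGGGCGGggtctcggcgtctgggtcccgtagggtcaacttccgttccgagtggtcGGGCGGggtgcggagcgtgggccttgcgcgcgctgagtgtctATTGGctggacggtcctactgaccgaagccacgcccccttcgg
1700057H15Rik, upstream: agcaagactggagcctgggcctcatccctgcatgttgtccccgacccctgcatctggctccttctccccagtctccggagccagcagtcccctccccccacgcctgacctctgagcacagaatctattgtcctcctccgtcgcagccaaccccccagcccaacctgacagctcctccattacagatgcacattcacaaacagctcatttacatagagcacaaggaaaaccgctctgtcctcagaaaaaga
Zfp69, upstream: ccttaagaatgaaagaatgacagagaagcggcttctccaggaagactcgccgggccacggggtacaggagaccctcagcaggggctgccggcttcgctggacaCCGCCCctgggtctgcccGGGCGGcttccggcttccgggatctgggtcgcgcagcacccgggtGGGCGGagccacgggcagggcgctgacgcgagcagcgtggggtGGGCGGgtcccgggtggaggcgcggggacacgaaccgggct
Glis1, upstream: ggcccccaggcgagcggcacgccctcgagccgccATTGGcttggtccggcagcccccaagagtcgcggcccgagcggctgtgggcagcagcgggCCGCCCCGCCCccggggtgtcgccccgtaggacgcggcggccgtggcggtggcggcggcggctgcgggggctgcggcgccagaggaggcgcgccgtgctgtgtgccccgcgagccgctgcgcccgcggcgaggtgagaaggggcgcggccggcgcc

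The first listed RefSeq start of each gene was searched on both strands in a window of 300 bases (250 before and 50 after), and 9 of the 10 windows held GGGCGG, against 35.7% of all 32851 windows. The letters CCAAT were in 5 of 10 windows (37.4% of all), CACGTG in 2 (7.15%) and TATAAA in none (13.6%). CpG pairs ranged from 6 in 1700057H15Rik to 52 in Zswim5, where the median over all windows was 7. Mutyh and Zfp69 have 2 listed starts each, and over all 12 windows of the members GGGCGG was in 10 and CCAAT in 6, with 2 CpG pairs in the second window of Mutyh. The windows of Mutyh and Toe1 overlap, so that they share most of these letters. A match of letters is a description and no measurement of binding.

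The sorting was checked on marker genes of each cell type. Rbfox3 had 1347 ± 23.7 CPM (a gene's counts relative to the library total, scaled by the trimmed mean of M-values, TMM) in WT NeuN+ (SD, n = 3) and 98.3 ± 9.76 in WT NeuN-. The myelin gene Mbp went the other way, with 90.2 ± 5.02 against 2292 ± 128 CPM, as did the astrocyte transporter Slc1a3, with 22.4 ± 3.54 against 573 ± 17.8. All 6 neuronal markers were higher in NeuN+, and all 4 oligodendrocyte, 2 precursor, 4 astrocyte, 4 microglial and 3 endothelial markers were higher in NeuN-. Of 3 choroid plexus markers, 2 were higher in NeuN-. No listed marker was at 0 counts in any NeuN- library, whereas in NeuN+ Cldn5 was at 0 in 3 libraries and C1qa in 1. In such mixed nuclei, fewer cells of a type and less RNA per cell cannot be told apart.

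The libraries labelled Mutyh-/- replicate 3 stood apart from replicates 1 and 2 in both cell types. Without this library, the number of genes of the whole table that passed the thresholds (an absolute log2 fold change above 0.5 with an adjusted p under 0.05) against WT went from 129 to 837 in NeuN+ and from 87 to 435 in NeuN-. Values against WT and between DKO and Mutyh-/- that moved by over 0.1 on the log2 scale without it are given both ways below, as are smaller shifts in Hpdl, Zswim5, Glis1 and Mutyh.

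**Figure D1:**
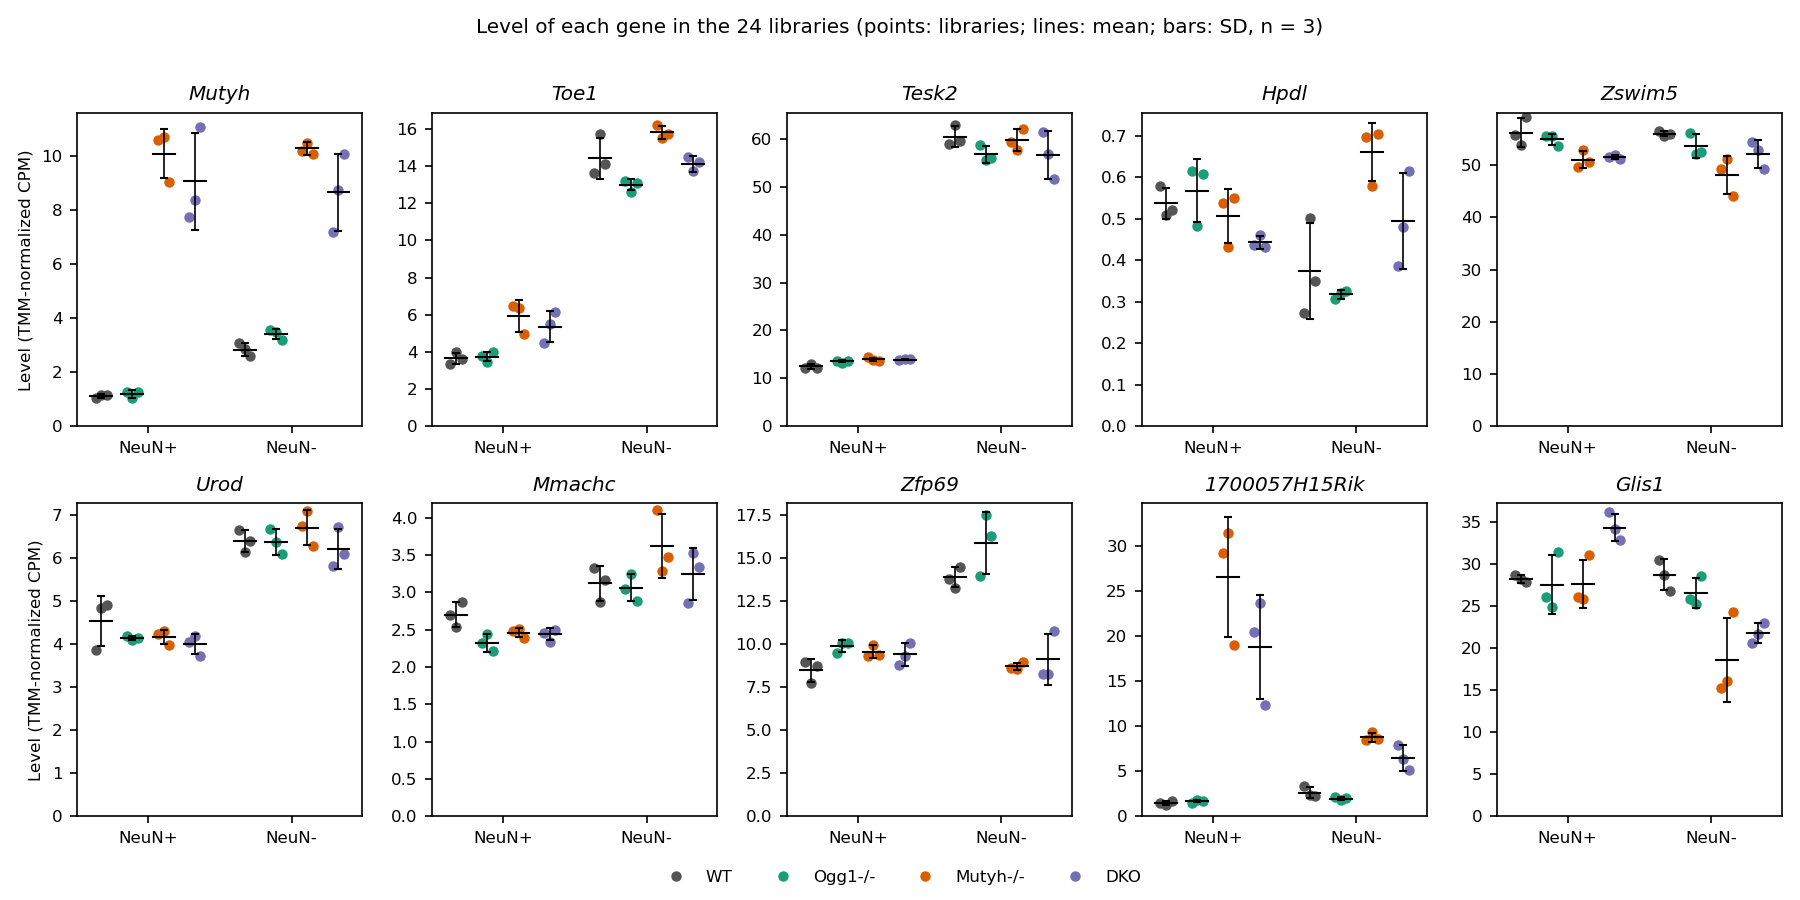
Level of each of the 10 genes (TMM-normalized CPM, vertical axis from 0) in NeuN+ and NeuN- nuclei of WT, Ogg1-/-, Mutyh-/- and DKO. Points are libraries, lines the mean and bars the SD of 3 libraries, and Mutyh lies between 7.74 and 11.1 CPM in the 6 NeuN+ libraries labelled Mutyh-/- or DKO, above all WT and Ogg1-/- libraries.

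Mutyh RNA was more abundant in the libraries that carry the Mutyh knockout label, opposite to the direction that the label names. Its NeuN+ levels were 1.05, 1.18 and 1.18 CPM in the WT libraries and 10.6, 10.7 and 9.06 CPM in those labelled Mutyh-/-. The libraries labelled DKO had 7.74, 8.39 and 11.1 CPM. No library labelled Mutyh-/- or DKO came near a WT library. The raw counts behind these levels were 71 to 79 in WT, 592 to 708 in Mutyh-/- and 550 to 903 in DKO. Mutyh was thus 8.85-fold higher than WT in Mutyh-/- (log2 fold change 3.15, standard error 0.15) and 7.97-fold higher in DKO (2.99, standard error 0.15).

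In NeuN-, Mutyh had 3.07, 2.85 and 2.6 CPM in WT and 10.2, 10.5 and 10.1 CPM in Mutyh-/-. The libraries labelled DKO had 7.21, 8.75 and 10.1 CPM. Again no library labelled Mutyh-/- or DKO overlapped WT, and the distance was smaller than in NeuN+. WT NeuN- nuclei had more Mutyh RNA than WT NeuN+ nuclei. The differences from WT were 3.61-fold in Mutyh-/- (log2 1.85, standard error 0.11) and 3.04-fold in DKO (1.61, standard error 0.11). Without Mutyh-/- replicate 3, the log2 fold change in Mutyh-/- was 3.22 in NeuN+ and 1.86 in NeuN-.

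Counts per gene do not show which exons the reads came from. They therefore do not check whether the transcript is disrupted, and genotype names are those of the labels throughout. Ogg1 RNA, unlike that of Mutyh, did not separate the labels. In NeuN+, Ogg1 had 2.54, 3.49 and 3.1 CPM in WT, 3.34, 3.16 and 2.95 in Ogg1-/- and 3.03, 2.96 and 3.21 in DKO. In NeuN-, it had 7.0, 6.9 and 6.21 CPM in WT, 6.81, 7.12 and 6.43 in Ogg1-/- and 7.46, 7.75 and 6.14 in DKO. The groups overlapped in every case.

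The 8 groups were ordered by their mean Mutyh level after scaling all 24 libraries together. NeuN+ WT (1.23 ± 0.0718 CPM, SD, n = 3) and NeuN+ Ogg1-/- (1.31 ± 0.145) came lowest and did not differ beyond their spread. NeuN- WT (2.6 ± 0.216) and NeuN- Ogg1-/- (3.15 ± 0.2) followed, and are tested below. The other 4 groups lay within a narrow span, NeuN- DKO (7.97 ± 1.29), NeuN- Mutyh-/- (9.44 ± 0.236), NeuN+ DKO (9.94 ± 1.95) and NeuN+ Mutyh-/- (10.9 ± 0.901). NeuN- DKO ended at 9.22 CPM, just below the lowest NeuN- Mutyh-/- library at 9.28 CPM, and the neighbours further up in this order overlapped. On the same scale, Mutyh was 2.11-fold lower in NeuN+ than in NeuN- in WT, while the means of the cell types in Mutyh-/- and DKO differed in the other direction.

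Toe1, which starts beside Mutyh, was higher in the NeuN+ libraries with the Mutyh knockout label. It had 3.36, 3.98 and 3.62 CPM in WT, 6.46, 6.38 and 4.94 CPM in Mutyh-/- and 4.46, 5.48 and 6.14 CPM in DKO. Both knockout groups lay wholly above WT, with log2 fold changes of 0.69 (standard error 0.13) in Mutyh-/- and 0.55 (0.13) in DKO. Without Mutyh-/- replicate 3, the lowest library of its group, the former was 0.81. In NeuN-, where Toe1 had 13.6, 15.7 and 14.1 CPM in WT, the Mutyh-/- libraries (16.2, 15.5 and 15.7 CPM) and the DKO libraries (14.5, 13.7 and 14.2 CPM) overlapped WT. The log2 fold changes there were 0.13 (0.06) and -0.03 (0.06).

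Tesk2, whose exons overlap those of Toe1 on the other strand, differed little. In NeuN+, it had 12.2, 13.0 and 12.2 CPM in WT, 14.4, 13.9 and 13.7 in Mutyh-/- and 13.8, 14.0 and 14.1 in DKO. These groups did not overlap WT, but the log2 fold changes were only 0.17 and 0.16 (standard error 0.05 each). In NeuN-, it had 58.8, 62.8 and 59.5 CPM in WT, and the Mutyh-/- and DKO libraries, from 51.5 to 62.1 CPM, overlapped WT (log2 fold changes -0.02 and -0.09, standard error 0.06 each).

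Hpdl, on the other side of Mutyh, had the lowest level of the 10 genes. In NeuN+, WT had 0.579, 0.509 and 0.522 CPM, Mutyh-/- 0.538, 0.433 and 0.55, and DKO 0.436, 0.461 and 0.431. Only DKO was wholly below WT, with a log2 fold change of -0.28 (standard error 0.19) against -0.07 (0.19) in Mutyh-/-, which was -0.14 without its replicate 3. In NeuN-, Hpdl had 0.273, 0.501 and 0.349 CPM in WT and 0.698, 0.58 and 0.705 CPM in Mutyh-/-, and the libraries labelled DKO had 0.387, 0.481 and 0.616 CPM. Here Mutyh-/- lay above WT (log2 fold change 0.84, standard error 0.24), while DKO overlapped it (0.41, standard error 0.25). These NeuN- values rest on 25 to 33 counts per WT library and 46 to 55 per Mutyh-/- library, so their precision is low.

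Zswim5 was lower by a small amount. In NeuN+, WT had 55.7, 53.8 and 59.2 CPM, Mutyh-/- 49.7, 52.9 and 50.5, and DKO 51.5, 51.9 and 51.2. Neither knockout group overlapped WT, at log2 fold changes of -0.14 and -0.13 (standard error 0.05 each). In NeuN-, WT had 56.6, 55.6 and 55.9 CPM, Mutyh-/- 49.2, 51.1 and 44.1, and DKO 54.4, 52.8 and 49.2. The differences in NeuN- were -0.22 and -0.10 (0.06 each), again without overlap, and the former was -0.16 without Mutyh-/- replicate 3.

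Urod and Mmachc, the genes of heme synthesis and vitamin B12 processing, stayed close to WT. Urod had 3.88 to 4.91 CPM in WT NeuN+ and 3.74 to 4.31 CPM in the NeuN+ libraries labelled Mutyh-/- or DKO, and its 4 log2 fold changes lay between -0.18 and 0.07. Mmachc had 2.7, 2.53 and 2.87 CPM in WT NeuN+, 2.48, 2.51 and 2.39 in Mutyh-/- and 2.46, 2.34 and 2.5 in DKO. The knockout groups lay just below WT there (log2 fold changes -0.14 and -0.15, standard error 0.10 each). In NeuN-, Mmachc had 3.33, 2.87 and 3.16 CPM in WT and 4.1, 3.28 and 3.47 CPM in Mutyh-/-, and both Mutyh-/- and DKO overlapped WT (log2 fold changes 0.21 and 0.05, standard error 0.11 and 0.12).

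1700057H15Rik had the largest differences of the 10 genes in NeuN+ although it starts 7.68 Mb from Mutyh. In NeuN+, it had 1.49, 1.26 and 1.7 CPM in WT, 29.2, 31.4 and 19.0 CPM in Mutyh-/- and 20.4, 23.6 and 12.3 CPM in DKO. Every library with the Mutyh knockout label was thus far above every WT library, and replicate 3 was the lowest of both groups. The differences from WT were 17.8-fold in Mutyh-/- (log2 4.16, standard error 0.25) and 12.6-fold in DKO (3.66, standard error 0.25). Without Mutyh-/- replicate 3, the log2 fold change in Mutyh-/- was 4.35.

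In NeuN-, 1700057H15Rik had 3.32, 2.37 and 2.22 CPM in WT, 8.43, 9.37 and 8.54 CPM in Mutyh-/- and 7.93, 6.31 and 5.17 CPM in DKO. The groups again did not overlap, and the differences were smaller than in NeuN+, 3.32-fold (log2 1.73, standard error 0.17) and 2.45-fold (1.29, standard error 0.17). The stretch printed above for this lincRNA holds neither a GC box nor a CCAAT box.

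Zfp69 and Glis1 differed from WT mainly in NeuN-, where both were lower. Zfp69 had 13.8, 13.3 and 14.5 CPM in WT NeuN-, 8.6, 8.59 and 8.96 CPM in Mutyh-/- and 8.26, 8.25 and 10.8 CPM in DKO. It was 1.59-fold lower in Mutyh-/- (log2 -0.67, standard error 0.11) and 1.52-fold lower in DKO (-0.61, standard error 0.11), with no overlap. In NeuN+, the order was the opposite, with 9.0, 7.73 and 8.73 CPM in WT, 9.32, 9.99 and 9.4 in Mutyh-/- and 8.81, 9.31 and 10.1 in DKO (log2 fold changes 0.17 and 0.15, standard error 0.08 each). Only Mutyh-/- lay wholly above WT there.

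Glis1 had 30.5, 28.7 and 26.8 CPM in WT NeuN-, 15.2, 16.1 and 24.3 CPM in Mutyh-/- and 20.6, 21.7 and 23.0 CPM in DKO. It was 1.55-fold lower in Mutyh-/- (log2 -0.63, standard error 0.14) and 1.32-fold lower in DKO (-0.40, standard error 0.14), again without overlap. Replicate 3 of Mutyh-/- was far closer to WT than replicates 1 and 2, and without it the log2 fold change was -0.87. In NeuN+, Glis1 had 28.7, 28.2 and 27.8 CPM in WT, 26.1, 25.8 and 31.0 in Mutyh-/- and 36.1, 34.1 and 32.8 in DKO. Mutyh-/- overlapped WT (log2 -0.03, standard error 0.09) through replicate 3 alone, without which both libraries lay below WT (-0.12), while DKO lay above it (0.28, standard error 0.09).

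The marker lists moved in part with the labels, and their part in these differences was not tested. Lists that lay wholly to 1 side of WT are given here, with the choroid plexus for every group of NeuN-. In NeuN-, the summed choroid plexus markers were between 29.7 and 52.7 CPM in WT, 15.8 and 19.1 in Mutyh-/-, and 5.9 and 181 in DKO. The summed oligodendrocyte markers were between 5094 and 5908 CPM in WT, 4705 and 5731 in Mutyh-/-, and 3711 and 4883 in DKO. In Ogg1-/- NeuN-, these sums were between 7.73 and 82.7 CPM and between 4370 and 4752 CPM. The summed astrocyte markers of NeuN- were between 739 and 814 CPM in WT, 693 and 846 in Mutyh-/-, 823 and 924 in DKO and 856 and 967 in Ogg1-/-. The precursor markers of NeuN- were between 304 and 341 CPM in WT and 284 and 296 in DKO, and the endothelial ones between 19.1 and 21.2 CPM in WT and 16.1 and 19.0 in Ogg1-/-. In NeuN+, the precursor markers were between 2.36 and 3.08 CPM in WT and 1.66 and 2.19 in DKO. The summed neuronal markers of NeuN+ were between 4456 and 4809 CPM in WT, 4846 and 5190 in Mutyh-/-, and 4767 and 5029 in DKO.

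Counted over the 10 genes, the groups did not overlap for 7 genes in Mutyh-/- against WT in NeuN+ (21.1% of all tested genes did not) and for 8 in DKO (16.8%). In NeuN-, this held for 6 genes in Mutyh-/- (19.2%) and for 5 in DKO (17.0%). In both cell types, genes were found on both sides of WT, since in NeuN+ 5 were higher and 2 lower in Mutyh-/- (10.3% and 10.8% of all tested genes), and 5 and 3 in DKO (7.33% and 9.49%). In NeuN-, 3 were higher and 3 lower in Mutyh-/- (9.02% and 10.2%), and 2 and 3 in DKO (7.8% and 9.15%). The median log2 fold change of the 10 genes was 0.07 and 0.16 in NeuN+ and 0.10 and -0.04 in NeuN-, where that of all tested genes was between -0.009 and 0.007. Since these comparisons chose the genes, nothing is read from the counts.

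**Figure D2:**
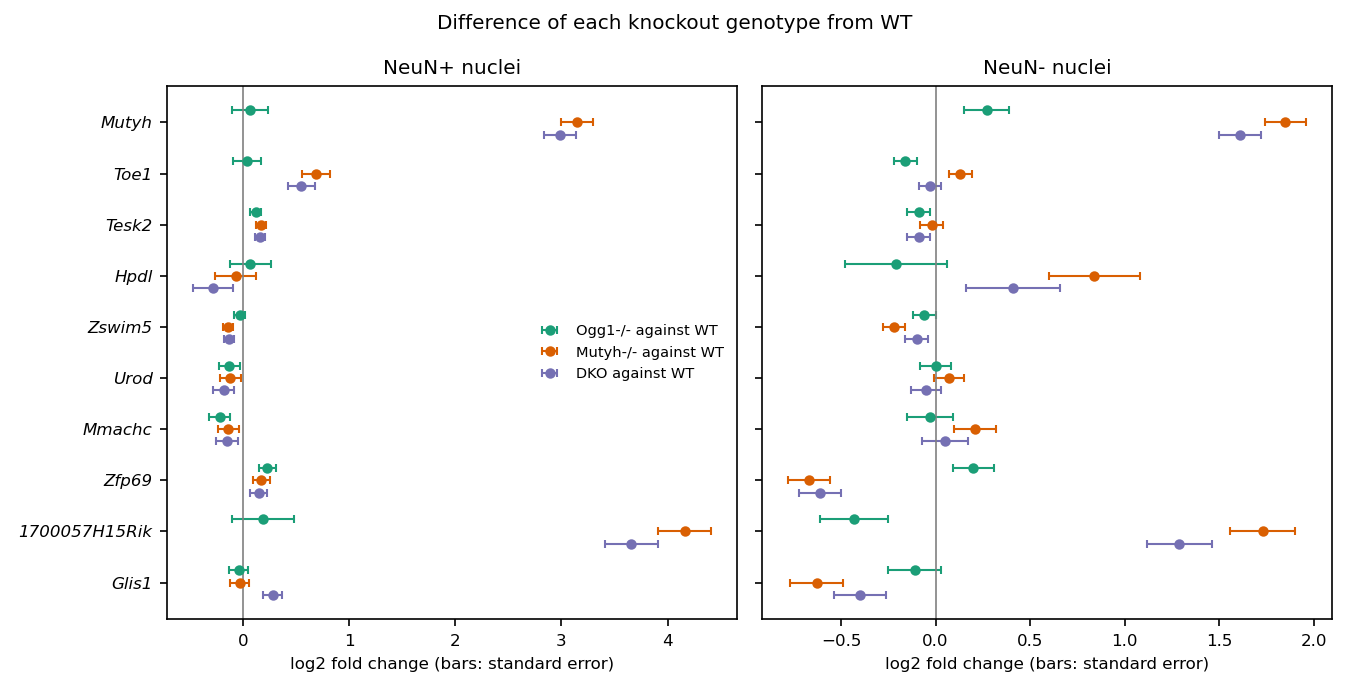
Log2 fold change of each gene against WT (horizontal axis; the scales of the panels differ) in NeuN+ (left) and NeuN- nuclei (right) for Ogg1-/-, Mutyh-/- and DKO, with bars for the standard error. Mutyh and 1700057H15Rik lie far to the right in Mutyh-/- and DKO (3.15 and 4.16 in Mutyh-/- NeuN+), and all values of Ogg1-/- lie between -0.43 and 0.27.

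Mutyh-/- and DKO were also set beside each other, since both carry the Mutyh knockout label and only DKO carries that of Ogg1. In NeuN+, Mutyh differed by a log2 value of -0.15 (standard error 0.12) between DKO and Mutyh-/-, with overlapping libraries, and 1700057H15Rik by -0.50 (standard error 0.20). The latter was -0.69 without Mutyh-/- replicate 3 and -0.26 without DKO replicate 3, and Toe1 went from -0.14 to -0.26 without Mutyh-/- replicate 3. Glis1 was the 1 gene of 10 without overlap (10.5% of all tested genes, 5.6% with DKO higher), at 0.31 (standard error 0.09), and 0.40 without Mutyh-/- replicate 3. In NeuN-, DKO lay below Mutyh-/- without overlap for 3 genes (13.4% of all did not overlap, 6.58% with DKO lower), Mutyh at -0.25 (standard error 0.11), Toe1 at -0.16 (0.06) and 1700057H15Rik at -0.44 (0.16), the last of which was -0.30 without DKO replicate 3. Glis1 overlapped in NeuN- (0.23) but not without Mutyh-/- replicate 3 (0.47). Both genotypes were used in choosing the genes, so these values have no test either.

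The difference from WT was then compared between the cell types. For Mutyh, the log2 difference from WT was larger in NeuN+ than in NeuN- by 1.28 (standard error 0.19) in Mutyh-/- and by 1.40 (0.19) in DKO, in a fit of all 24 libraries. The gap for 1700057H15Rik was 2.42 (0.32) and 2.37 (0.32), and for Toe1 0.55 (0.14) and 0.59 (0.14). Zfp69 (0.83 and 0.77, standard error 0.13 each) and Glis1 (0.58 and 0.69, standard error 0.17 each) had positive gaps, being lower than WT in NeuN- and close to or above it in NeuN+. Hpdl had negative gaps, at -0.93 and -0.68 (0.30 each). The gaps of Zswim5 (0.07 and -0.01, standard error 0.08 each), Urod (-0.20 and -0.13, 0.12 each), Tesk2 (0.17 and 0.26, 0.08 each) and Mmachc (-0.36 and -0.19, 0.14 each) were smaller. Without replicate 3 of Mutyh-/- in both cell types, the gaps in Mutyh-/- were 1.34 for Mutyh, 2.59 for 1700057H15Rik, 0.66 for Toe1 and 0.73 for Glis1. These are descriptions of the chosen comparisons.

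Ogg1-/- libraries served as a comparison that the choice of genes did not use, although they were set against the same WT libraries. None of the 10 genes was called in Ogg1-/- against WT in either cell type by the quasi-likelihood test of edgeR, with p-values adjusted after Benjamini and Hochberg over all tested genes, where 0.574% of all tested genes were called in NeuN+ and 0.229% in NeuN-. At an unadjusted p under 0.05, 3 genes passed in each cell type (12.3% of all tested genes in NeuN+ and 11.8% in NeuN-), and DESeq2 called 0 in both. The log2 fold changes of the 10 genes ranged from -0.22 to 0.23 in NeuN+ and from -0.43 to 0.27 in NeuN-, with medians of 0.05 and -0.08 beside 0.009 and 0.001 over all tested genes.

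Mutyh itself had 1.29, 1.04 and 1.27 CPM in Ogg1-/- NeuN+, overlapping WT, with a log2 fold change of 0.07 (standard error 0.17, 95% interval -0.27 to 0.40, edgeR adjusted p = 0.925). In Ogg1-/- NeuN-, it had 3.56, 3.51 and 3.19 CPM, above WT without overlap, with a log2 fold change of 0.27 (standard error 0.12, 95% interval 0.04 to 0.50, adjusted p = 0.398).

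1700057H15Rik had 1.54, 1.81 and 1.7 CPM in Ogg1-/- NeuN+ and 2.13, 1.78 and 1.99 CPM in Ogg1-/- NeuN-. The log2 fold change was 0.19 (standard error 0.29, edgeR adjusted p = 0.853) in NeuN+ and -0.43 (standard error 0.18, adjusted p = 0.371) in NeuN-. Toe1 had 3.79, 3.48 and 3.99 CPM in NeuN+ and 13.2, 12.6 and 13.1 in NeuN-, where its log2 fold change was -0.16 (standard error 0.06, edgeR adjusted p = 0.33). Neither gene passed the thresholds in Ogg1-/-.

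Zfp69 had 9.51, 10.1 and 10.1 CPM in Ogg1-/- NeuN+ (log2 fold change 0.23, standard error 0.08, edgeR adjusted p = 0.202) and 14.0, 17.5 and 16.3 CPM in Ogg1-/- NeuN- (0.20, standard error 0.11, adjusted p = 0.508). It was thus not lower in NeuN-, where the libraries labelled Mutyh-/- and DKO had less of it. Glis1 had 26.1, 24.9 and 31.4 CPM in NeuN+ and 25.8, 25.2 and 28.5 CPM in NeuN-, with log2 fold changes of -0.04 and -0.11 (edgeR adjusted p = 0.908 and 0.814). In NeuN-, its 3 libraries overlapped WT.

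The groups did not overlap for 3 of 10 genes in NeuN+ (19.3% of all tested genes), Tesk2, Mmachc and Zfp69, and for 4 in NeuN- (19.8%), Mutyh, Toe1, Tesk2 and 1700057H15Rik. Tesk2 was above WT in NeuN+ (13.7, 13.3 and 13.6 CPM, log2 0.12, standard error 0.05, edgeR adjusted p = 0.381) and below it in NeuN- (58.6, 55.5 and 56.0 CPM, log2 -0.09, standard error 0.06, adjusted p = 0.623). Mmachc had 2.32, 2.44 and 2.21 CPM in Ogg1-/- NeuN+ (log2 -0.22, standard error 0.10, edgeR adjusted p = 0.372). Hpdl, Zswim5 and Urod overlapped WT in both cell types.

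An interaction term in the fit of all 24 libraries asked whether Ogg1-/- acted differently in NeuN+ and NeuN-. No member passed an adjusted p under 0.05 in the quasi-likelihood test of edgeR, where 0.0537% of all tested genes did. Tesk2 came closest, with a difference of 0.22 (standard error 0.08, unadjusted p = 0.00961, adjusted p = 0.552).

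The cell types of WT were compared in the same joint fit, where a call needed an absolute log2 difference above 1 besides an adjusted p under 0.05. Mutyh and its neighbours Toe1 and Tesk2, 3 of the 10 genes, were called, each lower in NeuN+ (42.9% of all tested genes were called, and 21.6% were higher in NeuN-). NeuN+ and NeuN- libraries ran on different lanes, so that the lane cannot be told apart from the cell type.

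Tesk2 had 13.3, 14.1 and 13.1 CPM in WT NeuN+ and 54.0, 57.2 and 54.6 CPM in WT NeuN- on the joint scale, 4.09-fold lower in NeuN+ (log2 -2.03, standard error 0.06, edgeR adjusted p = 6.41e-19). Toe1 had 3.67, 4.31 and 3.9 against 12.5, 14.3 and 12.9 CPM, 3.34-fold lower (log2 -1.74, standard error 0.10, edgeR adjusted p = 5.68e-13). Mutyh had 1.15, 1.28 and 1.27 against 2.82, 2.6 and 2.39 CPM, 2.11-fold lower (log2 -1.08, standard error 0.15, edgeR adjusted p = 8.72e-07). No NeuN+ library of WT reached a NeuN- library for these genes. Toe1 and Tesk2 share exon bases, and the part of this overlap in their similar direction was not tested.

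The other 7 genes did not pass both thresholds. Hpdl was higher in NeuN+ (log2 0.78, standard error 0.21, edgeR adjusted p = 0.00242), and without WT NeuN- replicate 2, its highest library of that group, the difference was 1.03 (adjusted p = 0.000335) and 4 genes were called. Zswim5 (log2 0.25, standard error 0.05, edgeR adjusted p = 0.000333), Zfp69 (-0.47, standard error 0.09, adjusted p = 0.000138), Urod (-0.25, standard error 0.09, adjusted p = 0.0112) and 1700057H15Rik (-0.60, standard error 0.25, adjusted p = 0.0367) had an adjusted p under 0.05 at a smaller size. Glis1 (0.22, standard error 0.12, edgeR adjusted p = 0.108) and Mmachc (0.03, standard error 0.10, adjusted p = 0.786) did not. With libraries scaled by their totals alone, the median log2 difference of all genes between the cell types was -0.25 against -0.0142 with TMM, and those of Glis1, Mmachc and Zswim5 then were -0.01, -0.20 and 0.015, with an edgeR adjusted p of 0.787 for Zswim5. Urod was above an adjusted p of 0.05 without WT NeuN+ replicate 1 (0.106), and 1700057H15Rik without WT NeuN+ replicate 1 or 2 or WT NeuN- replicate 1 (at most 0.215).

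**Figure D3:**
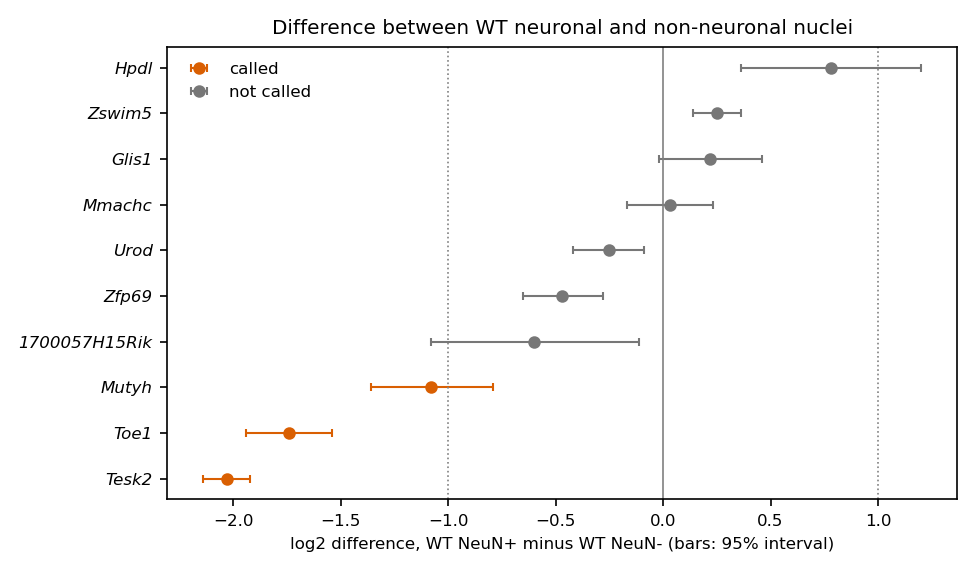
Log2 difference of each gene between WT NeuN+ and WT NeuN- nuclei (horizontal axis, NeuN+ minus NeuN-) with 95% intervals; dotted lines mark an absolute difference of 1. Tesk2 (-2.03), Toe1 (-1.74) and Mutyh (-1.08) lie left of the lower line and are called.

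Per kilobase of exon, Mutyh was among the lowest of the 10 genes in WT. In NeuN+, Zswim5 had 10.1 ± 0.487 CPM per kb (SD, n = 3) and Glis1 7.75 ± 0.13, while Mutyh had 0.436 ± 0.0283 and Hpdl 0.298 ± 0.0207. In NeuN-, Tesk2 led with 14.1 ± 0.5 CPM per kb, and Mutyh had 1.09 ± 0.0893 and Hpdl 0.207 ± 0.0643. Nuclear RNA holds unspliced transcripts, and whether reads in introns were counted is not given in the sources used here.

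To place the 10 genes among their surroundings, all tested genes with a position were sorted by their distance from Mutyh. Of the 332 tested genes that start within 10 Mb in NeuN+, 18 were called in Mutyh-/- against WT (5.42%, where 0.428% of all tested genes were), 9 higher and 9 lower, and 15 of them were not among the 10 genes. In DKO, 13 of these genes were called (3.92%, where 0.302% of all were), 5 higher and 8 lower, and 11 of them were not among the 10 genes. Outside the 10 genes, 4 of the calls in Mutyh-/- and 3 in DKO were of genes that start within 0.25 Mb of 1700057H15Rik. They had at most 2 raw counts in any WT library and passed the low-count filter only through libraries labelled Mutyh-/- or DKO. The shares in this window are therefore no test. In Ogg1-/-, 1 of the 332 genes was called (0.301%, where 0.574% of all tested genes were).

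In NeuN-, 8 of 359 genes within 10 Mb were called in Mutyh-/- (2.23%, where 0.273% of all tested genes were), 5 of them outside the 10 genes, and 6 in DKO (1.67%, where 0.116% of all were), 4 of them outside. In each of these genotypes, 1 call outside the 10 genes lay near 1700057H15Rik and passed the filter in the way described for NeuN+. None of the 359 genes was called in Ogg1-/-, with either edgeR or DESeq2, where edgeR called 0.229% of all tested genes. Without Mutyh-/- replicate 3, the numbers in Mutyh-/- were 22 in NeuN+ and 15 in NeuN-. The share of all tested genes that were called then rose as well, to 2.73% in NeuN+ and 1.35% in NeuN-. In NeuN-, the number in Mutyh-/- fell to 4 without WT or Mutyh-/- replicate 1 and to 5 without replicate 2 of either or WT replicate 3. The number in DKO fell to 2 without WT replicate 1 or 2, 1 without WT replicate 3, 3 without DKO replicate 1 and 2 without DKO replicate 2.

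Sorted by distance, 3 of 60 tested genes within 1 Mb were called in Mutyh-/- NeuN+, 1 in DKO NeuN+, and 1 of 67 in each of these genotypes in NeuN-. Of these, 2 in Mutyh-/- NeuN+ and the 1 in each other group were among the 10 genes. Only 1 call within 1 Mb, in Mutyh-/- NeuN+, was of another gene. From 1 to 5 Mb, 5 of 97 genes were called in each of these genotypes in NeuN+, and 3 and 2 of 110 in NeuN-. There, 1 called gene of Mutyh-/- NeuN- was among the 10 genes. From 5 to 10 Mb, 10 of 175 were called in Mutyh-/- NeuN+ and 7 in DKO NeuN+, and 4 and 3 of 182 in NeuN-. In each of these groups, 1 of the called genes was among the 10 genes. From 10 to 20 Mb, none of 309 genes was called in Mutyh-/- and 1 in DKO in NeuN+, and 2 and 0 of 329 in NeuN-. On other chromosomes, the shares in Mutyh-/- and DKO were 0.319% and 0.265% in NeuN+ and 0.189% and 0.0998% in NeuN-. The members were chosen from this window with these values known, so the counts describe it and are not tested. Genes that passed the filter only through libraries labelled Mutyh-/- or DKO are among the calls from 5 to 10 Mb. On the rest of chromosome 4, over 20 Mb away, 17 of 978 genes (1.74%) were called in Mutyh-/- NeuN+ and 15 of 1065 (1.41%) in Mutyh-/- NeuN-, none in DKO of either cell type, and 35 (3.58%) and 21 (1.97%) in Ogg1-/-. Over all tested genes, the shares in Ogg1-/- were 0.574% in NeuN+ and 0.229% in NeuN-.

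**Figure D4:**
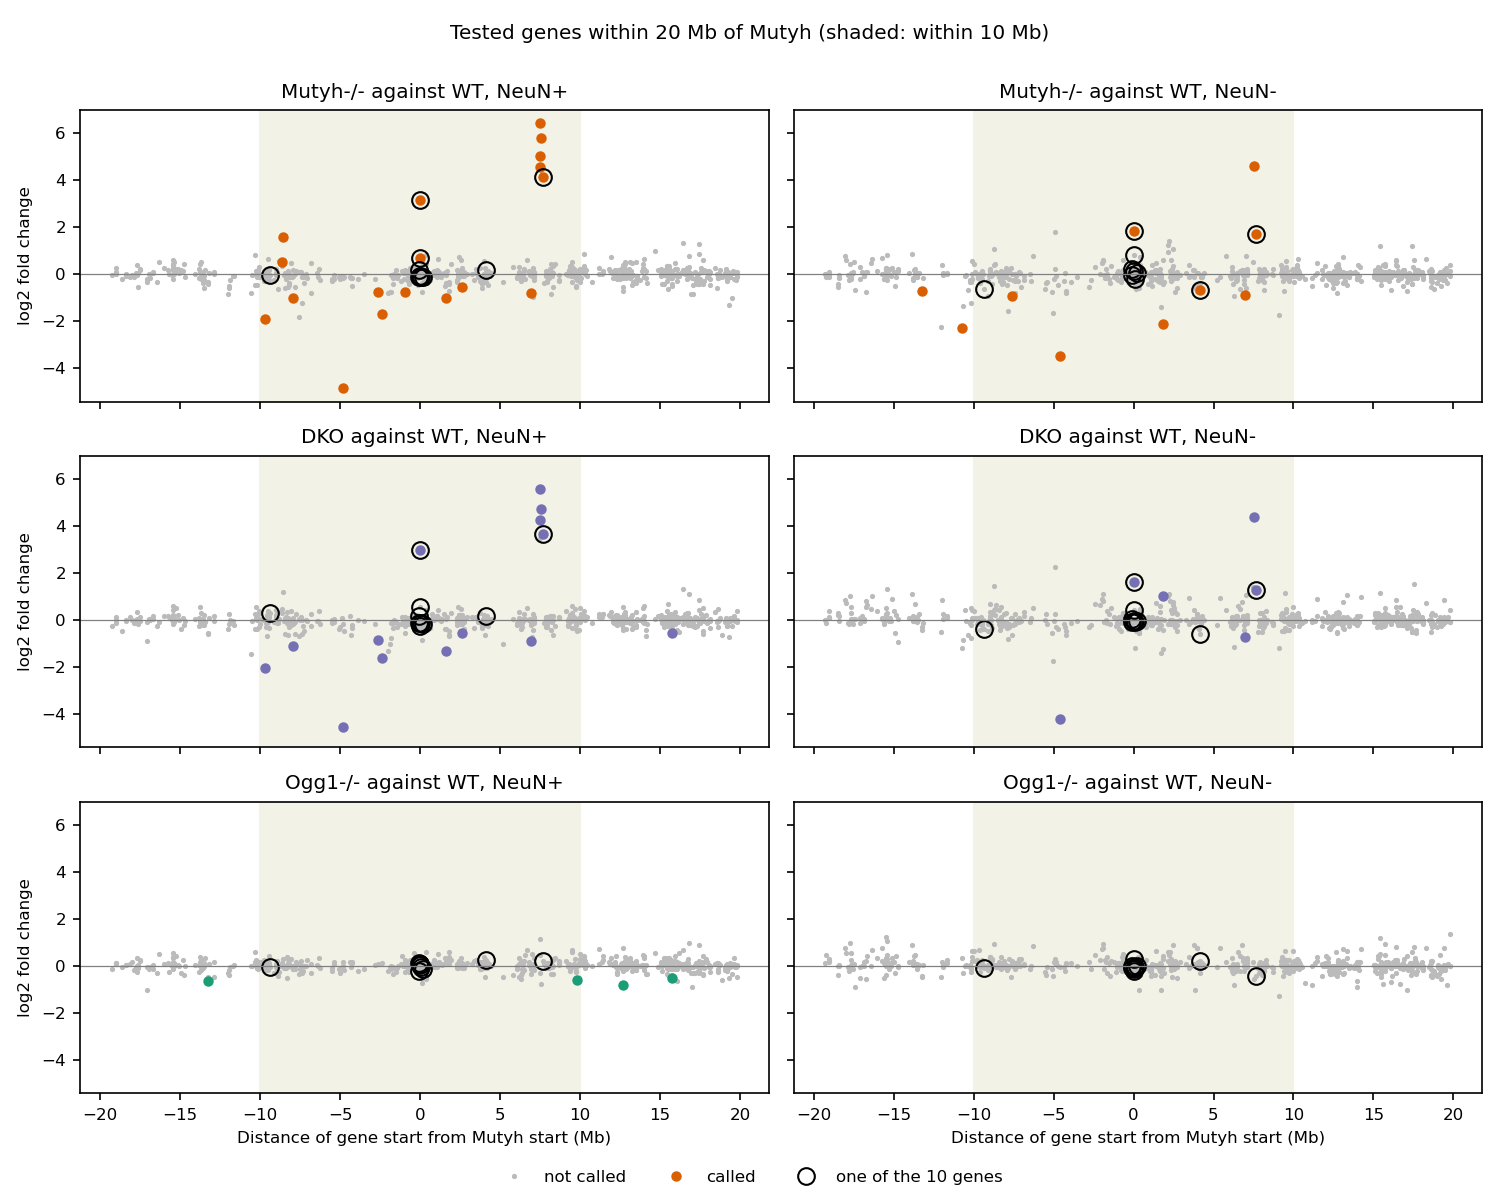
Log2 fold change against WT (vertical axis) of tested genes by the distance of their start from that of Mutyh (horizontal axis, Mb), for Mutyh-/-, DKO and Ogg1-/- in NeuN+ (left) and NeuN- nuclei (right). Coloured points were called, grey points were not, circles mark the 10 genes, and called genes lie across the shaded 10 Mb to either side in Mutyh-/- (18 in NeuN+) and DKO (13 in NeuN+) while Ogg1-/- has 1 there in NeuN+ and none in NeuN-.

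The 5 tested genes nearest to Mutyh on each side were looked at whatever their values. Members among them are described above. Ccdc163, whose start lies beside that of Mmachc, had log2 fold changes between -0.08 and 0.18 over the 6 comparisons with WT. The antisense gene Gm12996, 17.2 kb from Mutyh, had values between -0.03 and 0.19 (standard error 0.28 to 0.30). Gm26355, a small nuclear RNA gene at 96.9 kb, lay between -0.38 and 0.25 (standard error 0.25 to 0.35), and Gm27688 and Gm12993, tested in NeuN- only, between -1.21 and 0.28 (standard error 0.36 to 0.45). None of these 5 other genes was called in any of the comparisons in which it was tested.

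Beyond the members, the called gene with the largest difference within 10 Mb was 1700021L23Rik in Mutyh-/- and in DKO of both cell types. This lincRNA lies on the minus strand from 124302837 to 124311461, close to 1700057H15Rik. Its raw counts in NeuN+ were 2, 1 and 1 in WT, 113, 128 and 119 in Mutyh-/-, 3, 1 and 3 in Ogg1-/- and 83, 115 and 40 in DKO. In NeuN-, they were 1, 1 and 0 in WT, 19, 14 and 24 in Mutyh-/-, 0, 1 and 0 in Ogg1-/- and 18, 14 and 12 in DKO. No library without the Mutyh knockout label had more than 3 counts of this gene. It thus passed the low-count filter only through the libraries labelled Mutyh-/- or DKO. The 1 gene called within 10 Mb in Ogg1-/- NeuN+ was 5730409E04Rik, at 9.8 Mb, with 10.7, 11.8 and 10.7 CPM in WT and 7.57, 7.3 and 7.09 CPM in Ogg1-/- (log2 -0.60, standard error 0.11, edgeR adjusted p = 0.0227).

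Genes were also ranked by how closely their log2 level followed that of Mutyh over the 12 libraries of each cell type, by the smaller of the Pearson coefficients of NeuN+ and NeuN-, among 28490 genes. The libraries share genotype groups, so the coefficients mainly describe differences between groups. The first was 1700021L23Rik (0.97 in NeuN+ and 0.965 in NeuN-), followed by Scp2 (0.989 and 0.947), Podn (0.987 and 0.934), Ndufs5-ps (0.923 and 0.934) and 1700057H15Rik (0.978 and 0.92). By rank coefficients (Spearman), the smaller values of the 5 genes were 0.753, 0.748, 0.727, 0.797 and 0.706. Of these 5 genes, 4 lie on chromosome 4 within 10 Mb of Mutyh, and Ndufs5-ps had no position by symbol. Of the 30132 genes tested in NeuN+, 332 are placed within 10 Mb. The ranking follows the differences between groups that chose the members, and 1700057H15Rik is a member. As said above, 1700021L23Rik passed the low-count filter only through libraries labelled Mutyh-/- or DKO, and Podn overlaps Scp2 as given below. The position of these genes is therefore a description and no test.

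Scp2, which encodes a sterol carrier and thiolase of peroxisomes, starts 8.66 Mb before Mutyh. It had 22.5, 23.0 and 22.7 CPM in WT NeuN+, 32.7, 31.8 and 32.7 in Mutyh-/- and 29.8, 32.5 and 30.9 in DKO, and in NeuN- 27.7, 30.4 and 32.1 CPM in WT, 42.2, 41.0 and 39.7 in Mutyh-/- and 40.2, 42.3 and 40.5 in DKO. The groups did not overlap, at a far smaller difference than for Mutyh. Podn overlaps Scp2 on the same strand, so the counts of both are uncertain, as are those of Ndufs5-ps, which is named as a pseudogene of Ndufs5.

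The other members were less like Mutyh by this measure. Toe1 ranked 507 (coefficients 0.925 in NeuN+ and 0.53 in NeuN-). Zfp69 (0.259 and -0.882), Zswim5 (-0.835 and -0.727) and Glis1 (0.39 and -0.795) ranked at the far end, from 28256 to 28455. Hpdl went with Mutyh in NeuN- (0.811) and against it in NeuN+ (-0.592).

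The remaining genes of 8-oxoG repair were described from a list of 25, which includes the glycosylases Ogg1 and Neil1 to Neil3, the nucleotide pool enzyme Nudt1, and endonucleases, polymerases, ligases and clamp proteins of the later steps. All 25 were tested, and the quasi-likelihood test of edgeR called none in Mutyh-/-, DKO or Ogg1-/- of either cell type. At an unadjusted p under 0.05, 5, 5 and 2 genes passed in NeuN+ (18.7%, 13.5% and 12.3% of all tested genes) and 2, 0 and 4 in NeuN- (13.7%, 12.4% and 11.8%), and DESeq2 called 1, in DKO NeuN+. The medians of the list lay between -0.057 and 0.007, beside -0.009 to 0.009 over all tested genes. For Ogg1, the log2 fold change against WT was 0.05 and 0.01 in Ogg1-/- and DKO of NeuN+ (standard error 0.11 and 0.12, edgeR adjusted p = 0.916 and 0.978).

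Pcna, the sliding clamp of DNA replication and repair, was named after its values were seen, since it came closest to a call. It had 2.96, 3.19 and 2.49 CPM in WT NeuN+ and 2.03, 2.08 and 1.72 CPM in DKO NeuN+. The groups did not overlap, at a log2 fold change of -0.57 (standard error 0.12) and an adjusted p of 0.0623 in the quasi-likelihood test of edgeR. Over the alternatives the adjusted p ranged from 0.0102 to 0.326, and it passed with library totals, without the low-count filter, with the replicate number as a block, and in DESeq2.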

How the data were processed

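Nuclear RNA of sorted NeuN+ and NeuN- hippocampal nuclei was measured in 24 libraries (4 genotypes, 3 replicates each). The authors made libraries with a stranded total RNA kit, checked reads with FastQC 0.11.9, aligned read pairs to GRCm38 with HISAT2 2.1.0 and SAMtools 1.10, and counted them per gene of Ensembl release 102 with featureCounts. The deposited values are raw counts for 55254 genes by symbol. The settings for strand, overlapping genes and reads with several positions are not given in the sources used here. The authors then used R 4.3.2 and edgeR 3.42.4.

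Here edgeR 4.0.16 was run on the counts in R 4.3.3 (limma 3.58.1). Genes passing filterByExpr were tested (30132 in NeuN+, 31863 in NeuN-, 33523 over all libraries), and all 10 genes of the report passed in both cell types. Libraries were scaled by TMM, each cell type was fitted with its 4 genotypes at once, and the quasi-likelihood test with Benjamini-Hochberg adjustment over all tested genes was used. Calls needed an absolute log2 fold change above 0.5 (1 between cell types) besides an adjusted p under 0.05. Levels are TMM-normalized CPM, correlations used log2 CPM with a prior count of 2, and 95% intervals are normal intervals from the standard errors. Replicates varied by a biological coefficient of 0.0823 (NeuN+) and 0.124 (NeuN-). Totals were at least 56563586 counts per library, but Hpdl rests on 19 to 55 counts per library.

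Positions and overlaps came from GENCODE vM21 (GRCm38) by symbol, which matched 96.8% of tested genes in NeuN+ and 96.7% in NeuN-. Sequences came from RefSeq promoter windows of GRCm38.p6, in which all 10 genes matched. No protein table was used here.

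The members, lists and tests were chosen with earlier results of these data known. Genes named in the text are the 10 members, the 5 tested genes nearest to Mutyh on each side, the called gene with the largest change within 10 Mb in each comparison with WT, the 5 genes most like Mutyh, called repair genes and Ogg1, and the markers Rbfox3, Mbp and Slc1a3. Other genes are said to have been named after their values were seen. Libraries of 1 group were compared pairwise, and in each pair at least 94.9% of detected genes held different counts. Alternatives were other scalings (DESeq2 size factors, library totals), no low-count filter, at least 10 counts in every library, DESeq2 1.42.0 with its Wald test, only the groups compared, a replicate block and leaving out each replicate. Methylation, chromatin and behaviour were not analysed here.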

Additional observations from a re-analysis of the deposited data

Results flagged for a closer look

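Zfp69 lay above WT in every Mutyh-/- library of NeuN+ and below WT in every Mutyh-/- library of NeuN-. The log2 difference from WT was larger in NeuN+ than in NeuN- by 0.83, and this difference between the cell types was not tested, since the comparison chose the gene. Glis1 did the same in DKO, where every NeuN+ library was above WT and every NeuN- library below it, with a difference of 0.69 between the cell types that was not tested. Tesk2 lay above WT in every Ogg1-/- library of NeuN+ and below it in every Ogg1-/- library of NeuN-. The difference of 0.22 for Tesk2 was tested with an interaction term and had an adjusted p of 0.552 in edgeR's quasi-likelihood test. Single outlying values of a gene were not searched for, since each group held only 3 libraries.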

How the results depend on the processing

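For the values described against WT and between Mutyh-/- and DKO, 355 of 360 fits without 1 replicate, all 60 with the replicate block and 359 of 360 under the other alternatives moved by less than the spread between replicates. The log2 fold change of Mutyh without 1 replicate stayed between 3.09 and 3.22 in Mutyh-/- and 2.82 and 3.10 in DKO of NeuN+, and between 1.79 and 1.91 and 1.49 and 1.72 in NeuN-. Against WT, small values changed sign under 2 of 13 alternatives for Glis1 in Mutyh-/- NeuN+, Mmachc in DKO NeuN- and Tesk2 in Mutyh-/- NeuN-, and under 1 for Hpdl in Mutyh-/- NeuN+ and Toe1 in DKO NeuN-. Between DKO and Mutyh-/-, the small values of Mmachc, Tesk2, Zfp69 and Zswim5 in NeuN+ and of Zfp69 in NeuN- also changed sign under some alternatives. Of the tested values of members, 1 of 300 fits without a replicate crossed the threshold (Hpdl between cell types), and the other alternatives changed no call. The list of 8-oxoG repair genes in DKO NeuN+ had 1 call with library totals, without the low-count filter, with the replicate block and in DESeq2. Within 10 Mb of Mutyh, Ogg1-/- NeuN+ had 2 called genes without the filter, with the replicate block and with only the groups compared, and 0 to 1 without 1 replicate. Mutyh-/- NeuN- had 13 without the filter, 5 with at least 10 counts in every library, and 4 to 15 without 1 replicate, and DKO NeuN- had 1 with only the groups compared and 1 to 7 without 1 replicate. In NeuN+, the ranges without 1 replicate were 12 to 22 in Mutyh-/- and 12 to 16 in DKO. The cause of these shifts was not tested. Over all genes, the number called in NeuN+ without the filter was 625 in Mutyh-/-, 252 in DKO, 308 in Ogg1-/- and 93 between DKO and Mutyh-/-, and with only the groups compared 272, 140, 305 and 16. DESeq2 called 398 in Mutyh-/- and 173 in DKO of NeuN+, and 219, 178, 179 and 146 in the same 4 comparisons of NeuN-, where no filter gave 73 in DKO and 73 between DKO and Mutyh-/-, and only the groups compared gave 10, 147 and 2 in DKO, Ogg1-/- and between DKO and Mutyh-/-. Between cell types of WT, at least 10 counts in every library gave 8615. Without 1 replicate, the number in NeuN+ ranged from 62 to 837 in Mutyh-/-, 36 to 137 in DKO and 70 to 164 in Ogg1-/-. In NeuN-, these ranges were 31 to 435, 19 to 55 and 50 to 74. Between DKO and Mutyh-/-, they were 36 to 74 in NeuN+ and 4 to 89 in NeuN-. The shares of all tested genes given above move with these numbers. Same-numbered NeuN+ and NeuN- libraries of a genotype deviated together at a mean correlation of 0.112 (lowest 0.011, 6 of 12 over 0.1) against -0.0555 for different numbers, and same-numbered genotypes at -0.00494 in NeuN+ and 0.0464 in NeuN-, so the numbers were not taken to pair libraries. As a hint of pairing between cell types, all 12 same-numbered pairs were above 0, and 11 of 12 libraries of either cell type correlated best with their own number. A replicate block within genotype, chosen after seeing the data, left 3 members called between cell types of WT and none in the interaction of Ogg1-/-, and gave Glis1 an adjusted p of 0.0101 between cell types at 0.22. Under it, the gap of Mutyh between cell types was 1.28 in Mutyh-/- and 1.39 in DKO. With the replicate block, 171 genes were called in DKO NeuN+ and 63 in DKO NeuN-, and no call of a member changed. Depth limits Hpdl and the lincRNAs of low count, and its effect was not compared between genes.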

Other observations

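The stretch of chromosome 4 around the lincRNA 1700057H15Rik was picked because this member differed. Of the other tested genes that start within 0.25 Mb of it, 4 of 11 were called in Mutyh-/- NeuN+ (0.428% of all tested genes) and 3 of 11 in DKO NeuN+ (0.302%), and 1 of 9 in each of these genotypes in NeuN- (0.273% and 0.116%). The called genes had almost no counts in WT and passed the low-count filter only through the libraries labelled Mutyh-/- or DKO. The shares over all tested genes are therefore no test of the stretch. Values of the genes named next were known when they were picked. The lincRNA Gm12916 had 1, 2 and 2 raw counts in WT NeuN+, 49, 49 and 73 in Mutyh-/-, 0, 3 and 2 in Ogg1-/- and 41, 48 and 26 in DKO. The lincRNA 4933435F18Rik had 0, 2 and 1 counts in WT NeuN+, 56, 60 and 63 in Mutyh-/-, 1, 1 and 0 in Ogg1-/- and 41, 37 and 23 in DKO. Gm37667 had 0, 0 and 2 counts in WT NeuN+, 19, 16 and 19 in Mutyh-/- and 11, 16 and 3 in DKO. Not all genes of the stretch differed. Pou3f1, a transcription factor gene, had 9.33, 10.1 and 11.3 CPM in WT NeuN+ and 11.1, 11.6 and 10.9 CPM in Mutyh-/-, and Sf3a3, which encodes a splicing factor, had 10.8, 11.9 and 11.5 CPM in WT NeuN+ and 10.8, 10.5 and 10.7 CPM in Mutyh-/-.

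Ndufs5, also named with its values known, which encodes a subunit of mitochondrial complex I and starts 6.91 Mb from Mutyh, lay below WT in Mutyh-/- and DKO of both cell types, whereas the pseudogene that carries its name lay above WT there. In Ogg1-/- NeuN+, Ndufs5 also lay below WT, and the pseudogene overlapped WT. It had 7.77, 7.88 and 8.87 CPM in WT NeuN+, 4.75, 4.07 and 4.99 in Mutyh-/-, 7.0, 6.02 and 6.13 in Ogg1-/- and 4.21, 4.35 and 4.67 in DKO. Ndufs5-ps had 0.847, 0.943 and 0.691 CPM in WT NeuN+, 3.8, 4.07 and 3.14 in Mutyh-/-, 0.885, 0.513 and 0.45 in Ogg1-/- and 3.0, 3.28 and 1.64 in DKO. In NeuN-, Ndufs5 had 6.9, 7.95 and 8.14 CPM in WT, 5.64, 6.11 and 5.19 in Mutyh-/-, 7.67, 7.67 and 7.5 in Ogg1-/- and 4.99, 6.03 and 5.93 in DKO, and Ndufs5-ps had 2.06, 1.96 and 2.2 CPM in WT, 5.52, 5.6 and 4.55 in Mutyh-/-, 2.09, 2.39 and 2.26 in Ogg1-/- and 5.13, 5.25 and 3.53 in DKO. Reads of a gene and of its pseudogene could be taken for each other by alignment, which was not tested, so both counts are uncertain.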
